A study of Mus musculus with 4 samples.

Results

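Protein kinase A (PKA) is the kinase that cyclic adenosine monophosphate (cAMP) switches on in fat cells. The genes described here are its 2 catalytic subunits (*Prkaca* and *Prkacb*), its 4 regulatory subunits (*Prkar1a*, *Prkar1b*, *Prkar2a* and *Prkar2b*) and the 3 genes of its inhibitor peptides (*Pkia*, *Pkib* and *Pkig*). They were taken by symbol from the deposited expression table, 9 of its 19030 genes, by a rule that uses no measured value. The members were nevertheless chosen with earlier results of these data known. The samples were ingWAT, the inguinal white adipose tissue under the skin of the groin, of C57BL/6 mice aged 3 months and kept in the cold at 4 °C. Ctrl mice carried floxed *Oct3* alleles (Oct3 fl/fl), and cKO mice carried the same alleles with an Adiponectin-Cre transgene, which removes the organic cation transporter Oct3 from adipocytes and leaves it in the other cells of the depot. Each genotype had 2 libraries, all were from cold-exposed mice, and the number of mice behind a library is not stated in the sources used here, so the p-values measure only the spread between these libraries, which may be technical.

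In a resting cell the catalytic subunits are held inactive in a complex with a pair of regulatory subunits. Norepinephrine acting on β-adrenergic receptors raises cAMP, which binds the regulatory subunits and frees the catalytic subunits to phosphorylate lipases, perilipin and the transcription factor Creb, the route to fat breakdown and heat production in adipose tissue. The inhibitor peptides bind free catalytic subunits and carry them out of the nucleus, and RIIβ, the product of *Prkar2b*, is the regulatory subunit for which adipose tissue is best known.

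The regulatory subunits and the inhibitor peptides block the kinase through a stretch that resembles its substrates, and the codons of that stretch are shown because they are what separates the classes of member. Each line gives 10 codons of the coding strand, read from the GENCODE vM21 transcript (build GRCm38) of a RefSeq accession that the table lists for the gene, with the codon at the position that takes the phosphate in a true substrate in capitals. As background, type I subunits and inhibitor peptides have a residue there that cannot be phosphorylated, and type II subunits have a serine that the kinase phosphorylates.
Prkar1a: ggccgacggcgccgaggtGCTatcagtgct
Prkar1b: gcgcgtcgccggcggggcGGTgtgagtgct
Prkar2a: aaatttactagacgagtaTCAgtctgtgca
Prkar2b: cggttcacaaggcgtgccTCGgtctgtgca
Pkia: agaacaggtagaagaaatGCAatacatgat
Pkib: agggcaggccgccgcaatGCCttacccgac
Pkig: cggacaggccgtcggaatGCAgtccctgac
The capitals spell an alanine codon in *Prkar1a* and the 3 inhibitor genes, a glycine codon in *Prkar1b*, and a serine codon in *Prkar2a* and *Prkar2b*. These stretches lie in coding exons at chr11:109660098-109660127 on the plus strand for *Prkar1a*, at chr5:139108526-139108555 on the minus strand for *Prkar1b*, at chr3:7437410-7437439 on the plus strand for *Pkia*, at chr10:57728164-57728193 on the plus strand for *Pkib* and at chr2:163721196-163721225 on the plus strand for *Pkig*. In both type II genes the stretch crosses an exon junction, between chr9:108714287-108714308 and chr9:108716863-108716870 on the plus strand for *Prkar2a*, and between chr12:32038622-32038643 and chr12:31993776-31993783 on the minus strand for *Prkar2b*.

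The expression values are FPKM, fragments per kilobase of transcript scaled to the mapped reads of the library, so levels of different genes are compared per length. The libraries were estimated to hold between 17400000 and 18150000 reads. Differences between cKO and Ctrl were tested with limma for the 12658 genes whose FPKM averaged 1 or more, on log2(FPKM + 1), a scale that understates the change of low genes. A gene was called when its Benjamini-Hochberg adjusted p over all of these genes was under 0.05. *Slc22a3*, the gene of Oct3, stood at 16.95 and 17.68 FPKM in Ctrl and at 9.07 and 9.5 in cKO. This is the direction that the labels give, but the level of this gene alone does not establish the genotype. Across all genes 25.8% were called, 12.0% higher and 13.8% lower in cKO, and the median log2 fold change was -0.006. All 7 brown and beige adipocyte markers were called higher in cKO, 5 of 7 white adipocyte markers were called lower and all 12 tested skeletal muscle markers were called lower. In the same libraries 6 of 6 B cell and 5 of 6 T cell markers were called higher, and 4 of 4 nerve and Schwann cell markers and 5 of 6 fibroblast markers were called lower. Of 5 endothelial markers 3 were called lower, and of 6 macrophage markers 3 were called lower and 1 higher. Bulk tissue cannot tell fewer cells of a type from less RNA per cell, which holds for every difference below.

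Of the 9 members, 8 passed the filter, and 2 of the 8 were called, a share of 25.0% that is near the background of 25.8%. *Pkia* fell and *Prkar2b* rose in cKO ingWAT, while both catalytic genes, the other 3 regulatory genes and *Pkig* were not called. The median log2 fold change of the 8 was 0.06. Their median absolute log2 fold change was 0.11, against 0.15 over all genes tested. In 7 of the 8 the Ctrl and cKO libraries did not overlap, beside 66.5% of all genes tested, and *Pkig* was the exception.

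**Figure D1:**
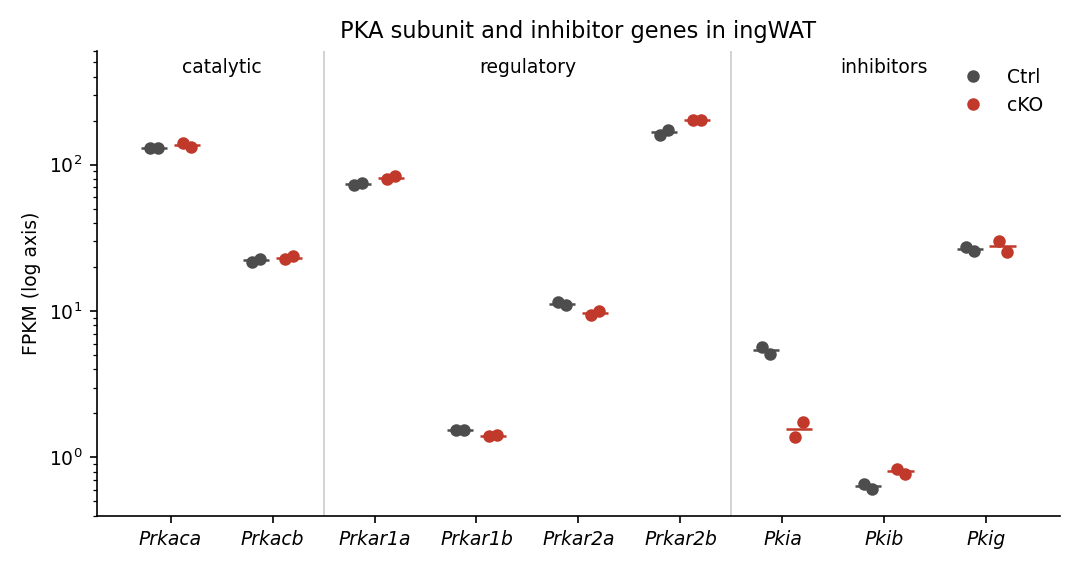
FPKM (log axis) of the 9 genes in each library; a point is a library, a short line the mean of the 2 libraries of a genotype, Ctrl in grey and cKO in red. *Prkar2b*, *Prkaca* and *Prkar1a* lie highest in both genotypes, and the cKO points of *Pkia*, at 1.38 and 1.74, lie well below its Ctrl points, at 5.67 and 5.1.

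The members spanned more than 100-fold in level. In Ctrl the order by mean FPKM was *Prkar2b* (166.5), *Prkaca* (129.9), *Prkar1a* (73.5), *Pkig* (26.5), *Prkacb* (22.2), *Prkar2a* (11.2), *Pkia* (5.38), *Prkar1b* (1.54) and *Pkib* (0.635), and no neighbours in that order overlapped. In cKO the order was the same. There *Pkia* and *Prkar1b* overlapped, since the mean of *Pkia* was 1.11 times that of *Prkar1b* in cKO against 3.48 times in Ctrl.

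The catalytic subunits carry the kinase activity. *Prkaca* (Entrez gene 18747, chr8:83972978-83996444), which encodes the α form, had 129.28 and 130.58 FPKM in Ctrl and 139.49 and 131.13 in cKO. Both cKO values were above both Ctrl values, the nearest pair by less than 1 FPKM. The log2 fold change of *Prkaca* was 0.06 (95% confidence interval -0.08 to 0.20, limma with Benjamini-Hochberg adjustment, adjusted p = 0.513). *Prkacb* (Entrez gene 18749, chr3:146729579-146812946), which encodes the β form, had 21.75 and 22.64 FPKM in Ctrl and 22.71 and 23.61 in cKO. Its log2 fold change was also 0.06 (95% confidence interval -0.08 to 0.20, limma with Benjamini-Hochberg adjustment, adjusted p = 0.516). For both genes a rise of more than 1.15-fold or a fall below 0.944 of the Ctrl level lay outside the interval on this scale, and a p that misses the threshold does not show that the levels were equal.

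Type I regulatory subunits form the soluble enzyme. *Prkar1a* (Entrez gene 19084, chr11:109649023-109669663) had 72.68 and 74.41 FPKM in Ctrl and 79.79 and 83.43 in cKO. Both cKO libraries were higher, with a log2 fold change of 0.15 (95% confidence interval 0.02 to 0.28, limma with Benjamini-Hochberg adjustment, adjusted p = 0.0969), which did not pass. *Prkar1b* (Entrez gene 19085, chr5:139017304-139150703), a form best known from the nervous system, had 1.54 and 1.55 FPKM in Ctrl and 1.39 and 1.42 in cKO. At these low levels, an estimated 63 to 73 reads per library, the log2 fold change of -0.08 had a 95% confidence interval from -0.34 to 0.18 (limma with Benjamini-Hochberg adjustment, adjusted p = 0.623). *Prkar1b* shares 341 exon bases on the same strand with the noncoding gene *Gm15672* in GENCODE vM21, and no other member shares exon bases with another gene there.

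Type II regulatory subunits tether the enzyme to A-kinase anchoring proteins. *Prkar2b* (Entrez gene 19088, chr12:31958450-32061648), the most abundant member, had 160.03 and 172.92 FPKM in Ctrl and 200.69 and 202.58 in cKO. Both cKO libraries exceeded both Ctrl libraries, and the Ctrl libraries differed from each other by more than the cKO libraries did. The mean of *Prkar2b* was 1.21 times the Ctrl mean, and the log2 fold change was 0.28 (SE 0.062, 95% confidence interval 0.13 to 0.42, limma with Benjamini-Hochberg adjustment, adjusted p = 0.0178). This call needed all 4 libraries: leaving out any one of them gave log2 fold changes from 0.22 to 0.33, with adjusted p from 0.056 to 0.157, and it was also lost without the filter on low values (adjusted p = 0.0606). Over all alternatives tried, the adjusted p of *Prkar2b* ran from 0.00889 to 0.157. *Prkar2a* (Entrez gene 19087, chr9:108692143-108750444), the form found in most tissues, moved the other way in value, with 11.57 and 10.92 FPKM in Ctrl and 9.45 and 10.04 in cKO. Its log2 fold change was -0.19 (95% confidence interval -0.36 to -0.02, limma with Benjamini-Hochberg adjustment, adjusted p = 0.0956), which did not pass.

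Beside *Prkar2b*, the summed FPKM of the 7 brown and beige adipocyte markers was 1521 and 1800 in Ctrl and 4793 and 4051 in cKO. That of the 7 white adipocyte markers was 31790 and 30380 in Ctrl and 23510 and 23850 in cKO. The white sum rests mostly on *Fabp4* and *Cfd*. *Fabp4*, not called, had 15874.02 and 16397.84 in Ctrl and 13456.13 and 13615.93 in cKO. *Cfd*, called lower, had 10300.99 and 8546.45 in Ctrl and 6345.02 and 6259.99 in cKO. Neither list has a member at 0 in any library. Their part in the rise of *Prkar2b* was not tested.

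**Figure D2:**
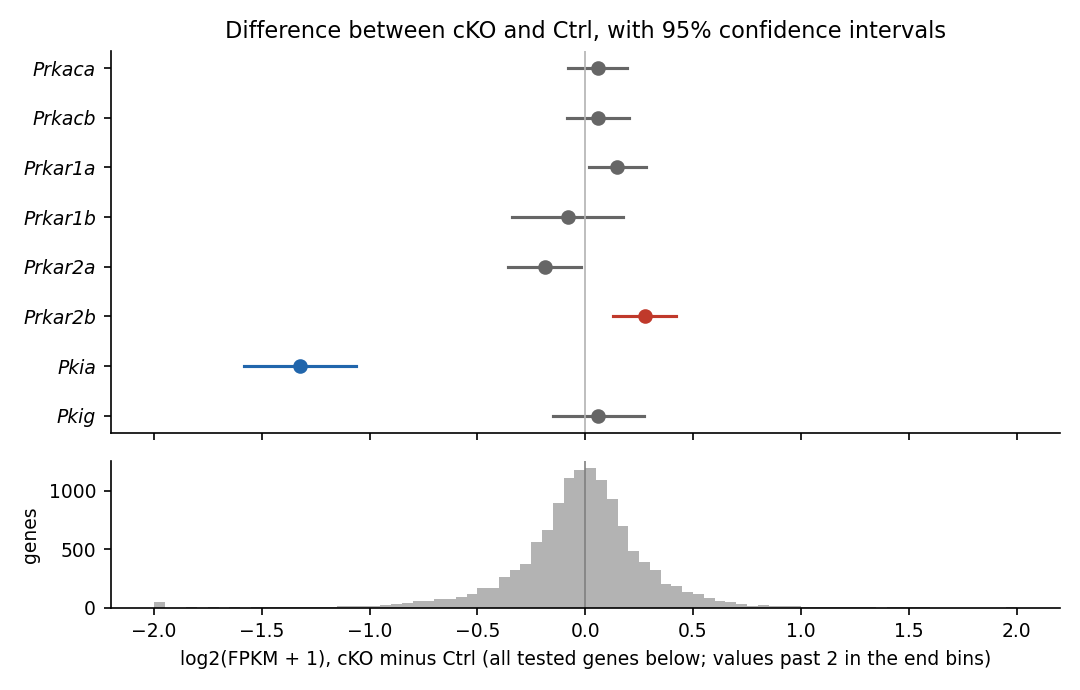
Upper panel, difference in log2(FPKM + 1) between cKO and Ctrl for the 8 tested members, with the 95% confidence interval as a line (red, called higher; blue, called lower; grey, not called); lower panel, number of genes by the same difference over all 12658 tested genes. *Pkia* lies at -1.32 and *Prkar2b* at 0.28, and the other members lie within 0.19 of 0.

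The inhibitor peptides are small proteins that occupy the active site of the free catalytic subunit. *Pkia* (Entrez gene 18767, chr3:7366604-7445366), whose product was first purified from muscle and which is also expressed in brain, had 5.67 and 5.1 FPKM in Ctrl and 1.38 and 1.74 in cKO. Each cKO value was far below each Ctrl value, the mean was 3.45-fold lower, and the log2 fold change was -1.32 (SE 0.11, 95% confidence interval -1.58 to -1.06, limma with Benjamini-Hochberg adjustment, adjusted p = 0.000502). Its absolute log2 fold change stood at the 99.0 percentile of all tested genes. By an estimate from its transcript length, *Pkia* rested on between 86 and 369 reads per library. Leaving out any one library gave log2 fold changes between -1.42 and -1.22, all with *Pkia* still called, and its adjusted p ran from 0.000336 to 0.0278 over all alternatives tried (limma). Requiring an FPKM averaging 5 or more removed the gene from the test.

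*Pkig* (Entrez gene 18769, chr2:163658211-163726158), the inhibitor gene with the highest level here, had 27.36 and 25.71 FPKM in Ctrl and 30.26 and 25.33 in cKO. The cKO libraries lay on both sides of the Ctrl libraries, with a log2 fold change of 0.06 (95% confidence interval -0.15 to 0.27, limma with Benjamini-Hochberg adjustment, adjusted p = 0.665). Without the first cKO library the value was -0.064. *Pkib* (Entrez gene 18768, chr10:57631981-57741112) was under the filter, with 0.66 and 0.61 FPKM in Ctrl and 0.84 and 0.77 in cKO. Its cKO values were the higher ones. When every gene was tested, the log2 fold change of *Pkib* was 0.14 (limma with Benjamini-Hochberg adjustment, adjusted p = 0.207). The table gives 6 RefSeq transcripts for *Pkib*, from 525 to 5317 bases long, so its read number is not known well.

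The marker lists whose sums fell in cKO are given beside *Pkia*. The white adipocyte sum, given above, was also lower in cKO. So was the endothelial sum, at 192.5 and 191.3 in Ctrl and 163.6 and 170.4 in cKO. The summed FPKM of the 14 skeletal muscle markers was 2606 and 1754 in Ctrl and 20.4 in both cKO libraries, a fall of 107-fold, and no muscle marker was at 0, although 9 and 10 of them were under 1 FPKM in the cKO libraries. From the second to the first Ctrl library the muscle sum was 1.49-fold higher and *Pkia* 1.11-fold higher, and from the first to the second cKO library the muscle sum was 1.003 times and *Pkia* 1.26 times as high. The nerve and Schwann cell sum, over 4 markers of which none was at 0, was 152.9 and 135.4 in Ctrl and 46.5 and 56.5 in cKO, so the ratios taken in the same way were 1.13 and 1.21. The fibroblast progenitor sum, over 6 markers of which none was at 0, was 1355 and 1158 in Ctrl and 717 and 741 in cKO, with ratios of 1.17 and 1.03. For the white adipocyte sum the ratios were 1.05 and 1.01, and for the endothelial sum 1.006 and 1.042. The part of these cells in the fall of *Pkia* was not tested.

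**Figure D3:**
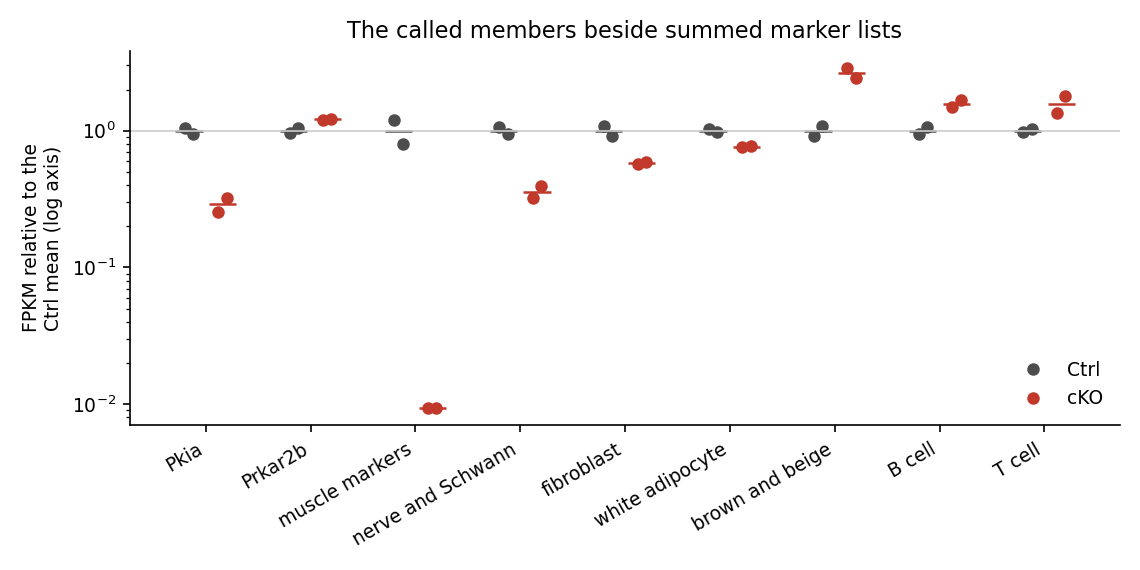
FPKM in each library divided by the Ctrl mean (log axis) for *Pkia*, *Prkar2b* and the summed marker lists named on the axis; points are libraries, short lines group means, Ctrl in grey and cKO in red. The muscle sum falls furthest, to 0.00936 of the Ctrl mean, *Pkia* falls to 0.290, and the nerve and Schwann cell sum to 0.357.

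The same values give the makeup of the enzyme at the level of RNA. With 2 libraries against 2, the two-sided exact permutation test cannot go below p = 0.333, so these shares are a description. *Prkaca* made up 85.6% and 85.2% of the catalytic FPKM in Ctrl and 86.0% and 84.7% in cKO, and the genotypes overlapped. *Prkar2b* made up 65.1% and 66.6% of the regulatory FPKM in Ctrl and 68.9% and 68.1% in cKO. The type II genes together held 69.8% and 70.8% of it in Ctrl and 72.1% and 71.5% in cKO, and within type II the *Prkar2b* share was 93.3% and 94.1% in Ctrl and 95.5% and 95.3% in cKO. The genotypes did not overlap in any of these 3 regulatory shares, and each shift was under 3 percentage points.

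Summed regulatory FPKM was 1.63 and 1.70 times the summed catalytic FPKM in Ctrl and 1.80 and 1.92 times in cKO. All 3 inhibitor genes together reached 0.223 and 0.205 of the catalytic FPKM in Ctrl and 0.200 and 0.180 in cKO. Neither ratio overlapped between the genotypes (exact permutation test, p = 0.333, the smallest it can give). *Pkia* was 16.8% and 16.2% of the inhibitor FPKM in Ctrl and 4.25% and 6.25% in cKO, and *Pkig* was 81.2% and 81.8% in Ctrl and 93.2% and 91.0% in cKO. *Pkig* thus held most of the inhibitor RNA in every library, and the summed inhibitor FPKM overlapped between the genotypes, at 33.7 and 31.4 in Ctrl and 32.5 and 27.8 in cKO.

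**Figure D4:**
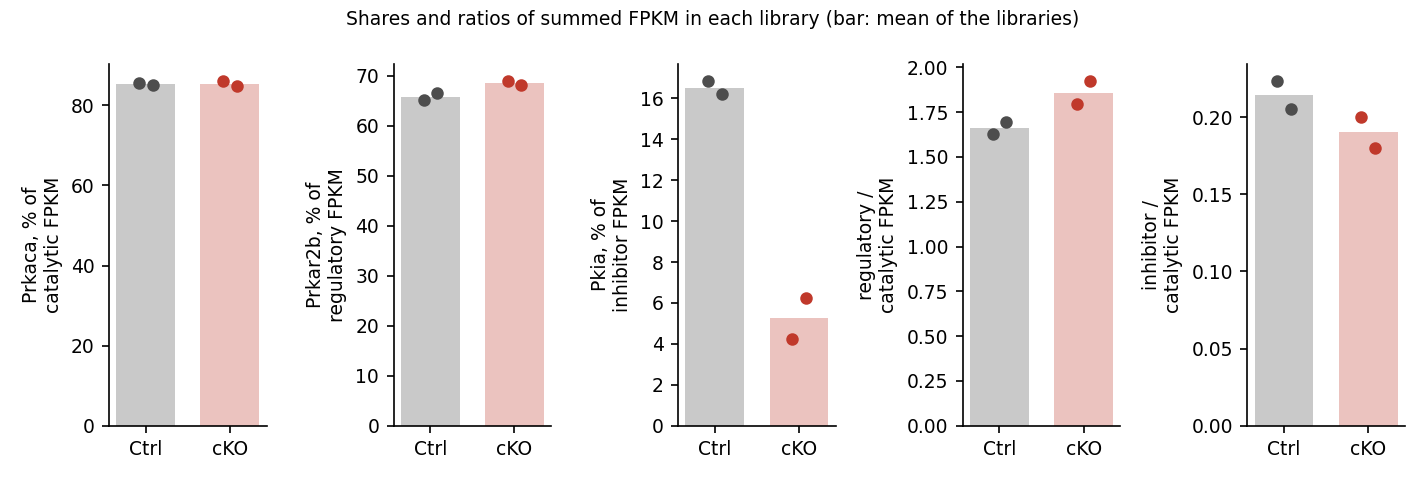
Shares in percent and ratios of summed FPKM per library for the catalytic, regulatory and inhibitor genes; bars are means of 2 libraries, points the libraries, Ctrl in grey and cKO in red. The *Prkaca* share is near 85% in both genotypes, and the *Pkia* share of inhibitor FPKM is 16.5% on average in Ctrl and 5.25% in cKO.

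For each called member, the 3 tested genes with the most similar values over the 4 libraries were found by the root mean square difference of gene-centred log2(FPKM + 1). For *Prkar2b* they were *Cisd1*, which encodes an iron-sulfur protein of the outer mitochondrial membrane, *Hspa4l*, a heat shock protein gene, and *Zwint*, a kinetochore gene, with differences from 0.00775 to 0.00867. For *Pkia* they were *Ptges*, which encodes a prostaglandin E synthase, the early response gene *Egr1*, and *Rtn2*, a reticulon gene, with differences from 0.0384 to 0.0576. *Ptges* had 60.27 and 52.73 FPKM in Ctrl and 21.6 and 24.1 in cKO, and *Egr1* had 18.74 and 16.27 in Ctrl and 5.78 and 7.33 in cKO. With only 4 libraries many genes share such a pattern.

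Promoter windows of RefSeq (build GRCm38.p6, from 250 bases before to 50 after a transcript start) were searched for the cAMP response element, the DNA motif that Creb binds. Windows were given for 8 members, all but *Pkia*. The palindrome TGACGTCA was in a window of 1 of the 8, *Prkar1a*, and in 3.52% of the 9605 tested genes that have a window. The stretch that holds it, at chr11:109650890-109650917 on the plus strand, is shown because it is the one full element among the members, with the motif in capitals.
Prkar1a: cgaggcgcatTGACGTCAgcagccgaac
The shorter form TGACG, or CGTCA on the other strand, which the palindrome also contains, was in a window of 6 of the 8 members and in 35.0% of those tested genes. A match in any window of a gene was counted. Window number ran from 1 for *Prkar2a* to 6 for *Prkar1a*, whose palindrome lies in 2 of them. The full set held 32851 windows for 27025 genes. Genes with more windows had more places for a match, and the shares were not corrected for this. Of all single windows, 1.79% held the palindrome and 20.8% the shorter form. The 8 members include *Pkib*, which was under the filter. Of the called members *Prkar2b* had neither form in its windows. These are matches of letters and not measured sites.

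The other genes of the pathway were taken from 9 lists that hold 104 genes, of which 83 were tested. In cKO 15 of them were called higher and 10 lower, 30.1% in all beside the background of 25.8%, and their median log2 fold change was -0.01. Without the first Ctrl library 6 were called higher and 2 lower, where 6.22% of all genes were called, and without the second Ctrl library 11 higher and 5 lower, where 11.7% of all genes were called.

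None of the 6 tested genes of PKA maturation and stability was called by limma, 0 of them had an unadjusted p under 0.05, and their median log2 fold change was 0.04. *Nmt1*, the N-myristoyltransferase that modifies the catalytic subunit and the gene with the highest level in this list, had 56.49 and 54.72 FPKM in Ctrl and 60.33 and 59.39 in cKO.

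Among the 24 tested A-kinase anchoring proteins, which place PKA at particular membranes and structures, 4 were called higher and 5 lower. The median of their log2 fold changes was -0.04. *Ezr*, which encodes ezrin, a linker of the membrane to actin, rose from 15.15 and 16.72 to 22.56 and 25.15 FPKM, a log2 fold change of 0.55. *Cbfa2t3*, a transcriptional corepressor gene with an anchoring isoform, rose from 5.88 and 5.68 to 8.01 and 8.31 FPKM, a log2 fold change of 0.43. *Akap1*, the anchor of the outer mitochondrial membrane and the list's gene with the highest level, rose from 32.1 and 33.55 to 41.78 and 40.11 FPKM, a log2 fold change of 0.31. The largest falls were those of *Cmya5*, which encodes myospryn of striated muscle, from 2.95 and 1.98 to 0.09 and 0.19 FPKM, and of *Synm*, which encodes the muscle intermediate filament protein synemin, from 6.19 and 4.88 to 2.96 and 3.93 FPKM. The part of muscle tissue in these falls was not tested.

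Of the 8 genes of receptor and Gs protein input, 2 were called higher and 1 lower. *Adrb1*, a β-adrenergic receptor gene, rose from 2.79 and 3.39 to 6.33 and 5.6 FPKM, a log2 fold change of 0.77. *Adrb3*, the receptor gene that marks adipocytes, fell from 166.45 and 151.12 to 113.26 and 122.23 FPKM, a log2 fold change of -0.43. *Gnas*, which encodes the stimulatory G protein, rose from 753.16 and 794 to 1027.33 and 959.38 FPKM, a log2 fold change of 0.36. Of the 7 tested adenylyl cyclases, the enzymes that make cAMP, *Adcy3* (from 12.35 and 14.23 to 28.85 and 24.99 FPKM, a log2 fold change of 0.97) and *Adcy10* (from 2.12 and 2.43 to 4.03 and 3.5 FPKM, a log2 fold change of 0.54) were called higher, and *Adcy5* (from 20.62 and 19.57 to 14.57 and 16.53 FPKM, a log2 fold change of -0.35) was called lower. *Adcy6*, with the highest mean of the list over the 4 libraries, had 27.49 and 27.89 FPKM in Ctrl and 27.31 and 26.62 in cKO and was not called.

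Of the 10 tested phosphodiesterases, which degrade cAMP, *Pde4d* rose from 4.38 and 5.32 to 8.67 and 8.13 FPKM and *Pde4a* from 5.96 and 6.66 to 8.85 and 8.33 FPKM, with log2 fold changes of 0.69 and 0.39, and 0 were called lower by limma, with 1 lower at an unadjusted p under 0.05. *Pde3b*, the one with the highest level, had 63.59 and 66.53 FPKM in Ctrl and 63.83 and 67.28 in cKO. Among 3 tested cAMP effectors other than PKA, *Popdc2*, a cAMP-binding protein of striated muscle, fell from 6.46 and 5.14 to 3.04 and 3.27 FPKM, and *Rapgef3*, which encodes Epac1, had 6.29 and 5.89 FPKM in Ctrl and 5.78 and 5.61 in cKO and was not called.

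Downstream, 1 of 9 genes of PKA substrates in adipocytes was called. It was *Hspb6*, a small heat shock protein gene abundant in muscle, which fell from 31.37 and 25.22 to 20.06 and 18.8 FPKM. *Plin1*, the perilipin of lipid droplets and the list's gene with the highest mean over the 4 libraries, had 533.61 and 496.88 FPKM in Ctrl and 502.2 and 476.94 in cKO, and the genotypes overlapped. Of 7 Creb coactivators and salt-inducible kinases, *Sik1*, a kinase gene that is itself induced by cAMP, was called, rising from 5.84 and 5.27 to 8.48 and 8.54 FPKM, while *Crtc2*, with the highest level, had 19.74 and 19.28 FPKM in Ctrl and 23.53 and 21.4 in cKO and was not called.

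Of the 9 tested genes that cAMP is known to induce, 4 were called higher and 1 lower, and the list's median log2 fold change was 0.30. Those called higher were *Ucp1*, *Dio2*, *Ppargc1a* (log2 fold change 0.83) and *Rgs2* (0.45). *Nr4a1* (0.27), *Nr4a2* (0.30), *Per1* (0.09) and *Dusp1* (0.22) were higher in mean value but not called. *Ucp1*, the uncoupling protein of thermogenic mitochondria, rose from 334.8 and 446.36 to 1657.92 and 1420.2 FPKM, and *Dio2*, which activates thyroid hormone, from 1.98 and 3.17 to 11.73 and 10.77 FPKM, with log2 fold changes of 1.99 and 1.80. Both are also in the list of brown and beige adipocyte markers. *Fos*, an early response gene, fell from 19.33 and 14.14 to 2.94 and 4.19 FPKM, a log2 fold change of -1.96.

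**Figure D5:**
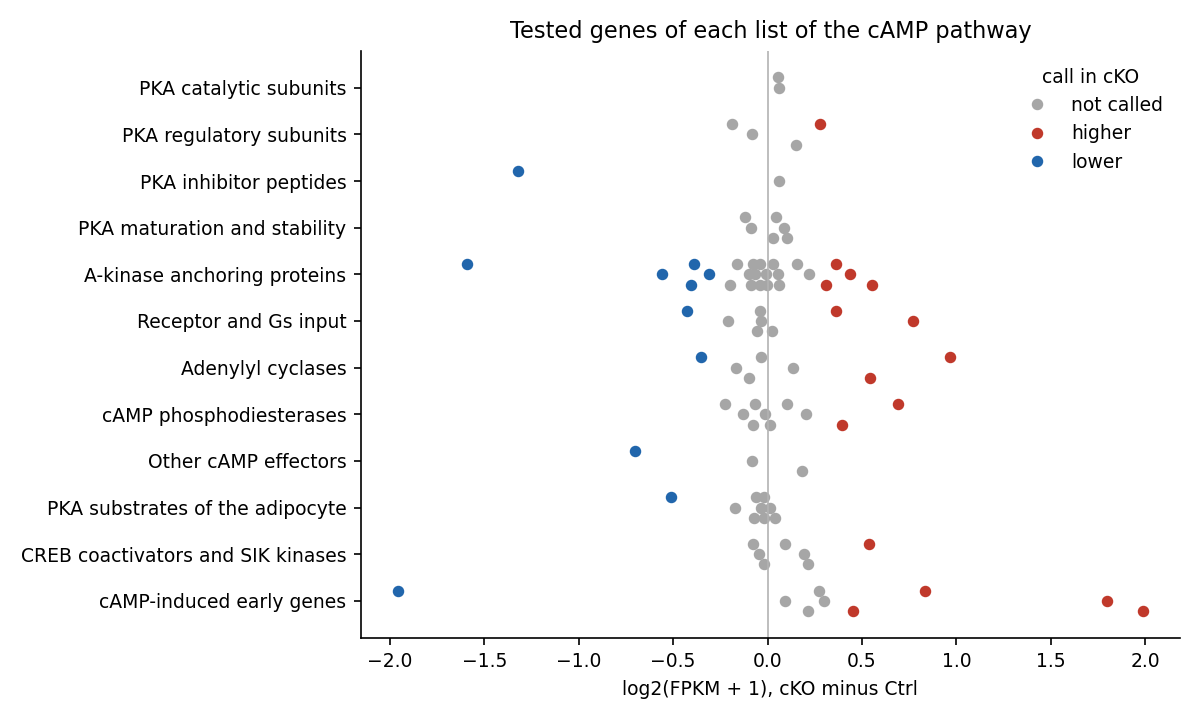
Difference in log2(FPKM + 1) between cKO and Ctrl for each tested gene of the 3 member lists and the 9 other lists of the cAMP pathway; a point is a gene, red where called higher, blue where called lower and grey where not called, and its height within a list carries no value. Most of the genes of the catalytic, regulatory and substrate lists lie near 0, *Pkia* lies at -1.32 and *Ucp1* at 1.99.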

How the data were processed

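Polyadenylated RNA of ingWAT was read by the authors as 50 bp single-end sequences on the BGISEQ-500 platform. The authors deposited 1 table of FPKM per gene and library, listed by Entrez gene and RefSeq transcripts. The submitters' processing notes name HISAT2 2.0.4, RSEM 1.2.12 and the mouse build mm10, and neither strand use nor scaling between libraries is given in the sources used here. Pathway and annotation columns of the table were not used. The 9 members and all gene lists were chosen with earlier results of these data known.

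Genes whose FPKM averaged 1 or more over the libraries were compared on log2(FPKM + 1) with limma 3.58.1 (R 4.3.3, eBayes with a trend, two-sided), Benjamini-Hochberg adjustment over 12658 genes and an adjusted p under 0.05. The procedure was tested on simulated data. Shares and ratios were computed per library from FPKM and compared by exact permutation. Depth was estimated from the FPKM steps of 299 short RNA genes, with 85.1% to 91.1% of the values used being whole reads within 0.1. On simulated libraries the estimate erred by up to 2.5%. Whole reads were not recovered for genes in general, so no count test was run. Reads per gene are such estimates times transcript length, from GENCODE vM21 (GRCm38), and gene coordinates come from RefSeq GRCm38.p6.

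Named genes are all members, *Slc22a3*, and of each list the 2 largest called rises, the 2 largest called falls and the gene with the highest level, plus the 3 genes most like each called member. Alternatives were quantile, median-of-ratios or TPM scaling, a smaller pseudocount (0.1), a stricter filter (FPKM averaging 5 or more) or none, eBayes without a trend, the replicate number as a block, and each library left out in turn. Tables and figures were made in Python 3.11.15 (pandas 2.3.3, numpy 2.4.6, scipy 1.17.1, matplotlib 3.10.9).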

Additional observations from a re-analysis of the deposited data

How the results depend on the processing

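*Pkia* was called lower under every alternative that tested it, and *Slc22a3* under every alternative. *Prkar2b* was higher in value throughout, but was not called without the filter on low values (0.28) or without any one library (0.22 to 0.33). Without the filter 1 of 9 members was called, beside 1762 of 19030 genes or 9.26%. Requiring an FPKM averaging 5 or more left *Pkia* and *Prkar1b* untested. There 1 of 6 members was called, beside 2868 of 8784 genes or 32.7%. *Pkig* turned from 0.06 to -0.064 without the first cKO library, reached 0.18 without the second, and was not called in either case. Genes called over the whole table numbered 1762 without the filter and from 787 to 2340 with one library left out, and the pathway genes called numbered from 6 to 14 higher and from 2 to 9 lower with one library left out. Where a library was left out, the lone library of its genotype was assumed to vary like the others. The replicate numbers share no stated litter or day, and deviations of same-numbered libraries correlated at 0.0148. With the replicate block 2 of 8 members were called, beside 3383 of 12658 genes or 26.7%. The log2 fold changes stayed at 0.28 for *Prkar2b* and -1.32 for *Pkia*. With 2 libraries per genotype and no read counts, small differences such as those of *Prkar1a* and *Prkar2a* could not be settled.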
